A study of Mus musculus with 6 samples.

Results

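The genes described here build and maintain the mitochondrial network and its DNA. They are 10 genes chosen by symbol for these roles: Mfn1, Mfn2 and Opa1 for fusion, Dnm1l, Fis1 and Mff for fission, and Tfam, Nrf1, Polg and Polg2 for the upkeep and expression of mitochondrial DNA (mtDNA). All 10 were found among the 28450 genes of the deposited table, each in 1 row. They were read in the livers of 3 male mice with an Acsm3 knockout and 3 male control mice labelled WT, all aged 12 weeks and on a normal diet. Each mouse gave 1 library of poly(A)-selected RNA from whole liver. The sources used here do not state which part of Acsm3 was disrupted, in which cells, or the strain of the mice.

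Mitochondria in a cell divide and join continuously. Outer membranes are joined by the mitofusins and inner membranes by the dynamin-like protein encoded by Opa1, while the dynamin-related protein encoded by Dnm1l is recruited to the outer membrane by adaptors such as Mff and constricts the organelle. mtDNA is packaged by Tfam, which also starts its transcription, and is copied by the polymerase encoded by Polg with its accessory subunit Polg2. Nrf1 encodes nuclear respiratory factor 1, a nuclear transcription factor for many genes of respiration and mtDNA expression. Hepatocytes are rich in mitochondria, and Acsm3 itself encodes an acyl-CoA synthetase of the mitochondrial matrix.

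Promoter sequences of the members were taken from RefSeq (GRCm38.p6), where all 10 members matched, with 16 windows of 300 bases in all. Each window runs from 250 bases before a transcription start to 50 bases after it. The core of the Nrf1 binding motif was searched as GCGCA, any base and GCGC on either strand, because Nrf1 is itself a member. It was present in 1 of the 10 members, Opa1, beginning 59 bases before the start, against 4.60% of all 32851 windows and 5.19% of the 27025 genes with a window. The core of the motif of estrogen-related receptors, searched as TNAAGGTCA on either strand, was present in 0 of the 10 members and in 1.28% of all windows. A match is a description of these letters and not a measured binding site. The 250 bases before the Opa1 start (GRCm38.p6, chr16:29579084-29579333, plus strand) are shown for this match, in capitals, which reads the same on either strand. Those before the most upstream of the 3 RefSeq starts of Mfn2 (chr4:147904910-147905159, minus strand) are shown because Mfn2 was the member with a called difference between genotypes. They hold neither motif.
Opa1: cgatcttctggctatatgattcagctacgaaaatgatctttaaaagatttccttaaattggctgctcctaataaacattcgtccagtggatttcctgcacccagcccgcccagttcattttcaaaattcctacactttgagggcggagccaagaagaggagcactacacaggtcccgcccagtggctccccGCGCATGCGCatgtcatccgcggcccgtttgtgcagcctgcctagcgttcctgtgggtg
Mfn2: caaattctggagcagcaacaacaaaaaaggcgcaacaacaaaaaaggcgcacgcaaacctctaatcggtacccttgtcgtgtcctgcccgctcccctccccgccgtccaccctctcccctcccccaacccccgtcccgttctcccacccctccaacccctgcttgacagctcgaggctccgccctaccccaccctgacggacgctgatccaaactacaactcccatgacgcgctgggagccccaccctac

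Levels are in FPKM, in which fragments are divided by gene length and library depth, so they can be compared only roughly between genes. The length used counts all annotated exons, a limit described further on. The steps between low values implied totals of 15400000 to 16300000 fragments per mouse. Values for single mice are given in the order of mice 1, 2 and 3 of a group. A difference between genotypes is knockout minus control on the scale log2(FPKM + 1), ± the SE moderated by limma. Benjamini-Hochberg adjustment was over the 10996 genes whose mean reached 1 FPKM. All 10 members passed this filter. Nrf1 did so only through the knockouts, with a mean of 0.998 FPKM in controls and 1.29 FPKM in knockouts. The targeted gene, Acsm3, was at 32.2 to 34.4 FPKM in the controls and at 0.668 to 2.92 FPKM in the knockouts. The groups as a whole differed widely: 16.5% of tested genes were called at an adjusted p of 0.05 by limma, 13.9% higher and 2.61% lower. The median difference over all tested genes was 0.13, which shifts with scaling, as described further on.

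Most members differed little between genotypes relative to the spread of 3 mice each. By limma 1 of the 10 was called, Mfn2, which was higher, and 0 were lower, where 16.5% of all tested genes were called. Mfn2 was also the 1 member with an unadjusted p under 0.05. The median difference over the members was 0.07, with a range from -0.09 to 0.30, beside 0.13 for all tested genes. For 4 of the 10 members, or 40.0%, the knockout values did not overlap the control values, and for all tested genes this share was 41.8%. In Mfn2, Dnm1l and Nrf1 each knockout was above the controls, 3 of 10 members where 33.9% of all tested genes did so. Nrf1 was tested only because of its knockout values. In Opa1 each knockout was below the controls, 1 of 10 members where 7.91% of all tested genes did so.

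**Figure D1:**
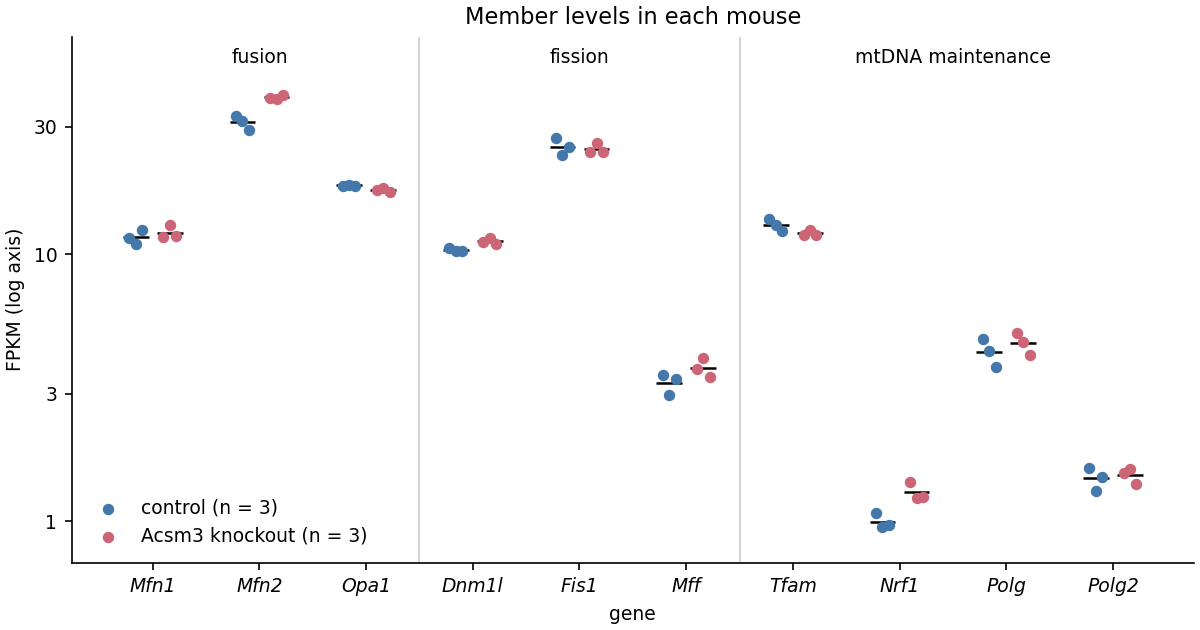
FPKM of the 10 members in each mouse on a log axis, with points for mice and a line for each group mean, controls in blue and knockouts in red (3 each). The knockout points of Mfn2 lie at 37.9 to 39.3 FPKM, above the controls at 29.1 to 32.8 FPKM, and most other pairs of groups lie close together.

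Among the fusion genes, the mitofusin gene Mfn2 showed the one difference that passed the test. It read 32.8, 31.4 and 29.1 FPKM in the controls, against 38.4, 37.9 and 39.3 FPKM in the knockouts. Every knockout liver was above every control liver. The group means were 31.1 ± 1.87 and 38.5 ± 0.733 FPKM (SD, n = 3), a ratio of 1.24. The log2 difference was 0.30 ± 0.07, with a 95% interval of 0.13 to 0.47 (limma, adjusted p = 0.0359). The lower end of that interval is close to the median of all tested genes. With the sign kept, 76.2% of tested genes had a lower difference, genes that fell included. The gene (ENSMUSG00000029020) lies on the minus strand of chromosome 4 at 147873599 to 147904704 in GRCm38.

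The Mfn2 call was lost without any 1 of the 6 mice, and under some other settings. Adjusted p by limma was 0.0553, 0.0996 and 0.102 without control 1, 2 or 3, and 0.0935, 0.101 and 0.0628 without knockout 1, 2 or 3, with log2 differences of 0.26 to 0.34. After median-ratio scaling the difference was 0.14 (adjusted p = 0.255), after quantile normalization 0.23 (adjusted p = 0.0649), and with no filter on low genes 0.30 (adjusted p = 0.0593).

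Mfn1, which encodes the other mitofusin, read 11.5, 10.9 and 12.3 FPKM in the controls, against 11.6, 12.9 and 11.7 FPKM in the knockouts. The groups overlapped, and the log2 difference was 0.05 ± 0.08 with a 95% interval of -0.13 to 0.24 (limma, adjusted p = 0.659). The gene is annotated on the plus strand at 32529465 to 32579239 of chromosome 3 in GRCm38.

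Opa1, the inner membrane fusion gene whose promoter is printed above, had the narrowest spread among controls of the 10 members. It read 18.0, 18.1 and 18.0 FPKM in the controls, against 17.3, 17.6 and 17.1 FPKM in the knockouts. All knockouts were below all controls, and the ratio of the means was 0.960. The log2 difference was -0.06 ± 0.06, with a 95% interval of -0.20 to 0.09 (limma, adjusted p = 0.551). The SE that limma moderates across genes is set wider than the spread of these 6 values alone. Opa1 lies on chromosome 16 at 29579334 to 29654884 on the plus strand of GRCm38. Its isoforms, which differ in how the protein can be cleaved, are not resolved by a gene-level value.

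Of the fission genes, 0 of 3 were called. Dnm1l, the dynamin-related GTPase that carries out division, read 10.6, 10.3 and 10.3 FPKM in the controls, against 11.1, 11.5 and 10.9 FPKM in the knockouts. The knockouts were all above the controls, with means of 10.4 ± 0.157 and 11.2 ± 0.281 FPKM (SD, n = 3). The log2 difference of 0.10 ± 0.06 did not pass (limma, adjusted p = 0.321), and its 95% interval ran from -0.06 to 0.25.

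The adaptor gene Mff read 3.54, 2.98 and 3.41 FPKM in the controls, against 3.70, 4.10 and 3.47 FPKM in the knockouts. Knockout 3 lay within the range of the controls. The log2 difference was 0.14 ± 0.09, with a 95% interval of -0.07 to 0.36 (limma, adjusted p = 0.302). Fis1 encodes an outer membrane protein that can also recruit fission and degradation factors. It read 27.1, 23.5 and 25.1 FPKM in the controls, against 24.0, 26.1 and 24.1 FPKM in the knockouts. All 3 knockouts lay within the control range, and the log2 difference was -0.03 ± 0.08 with a 95% interval of -0.21 to 0.16 (limma, adjusted p = 0.842). In GRCm38 Dnm1l lies on the minus strand of chromosome 16 at 16312230 to 16358959. Mff spans 82724890 to 82752394 of chromosome 1 and Fis1 136953275 to 136966234 of chromosome 5, both on the plus strand.

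Of the genes of mtDNA upkeep, 0 of 4 were called. Tfam, the packaging and transcription factor of mtDNA, read 13.5, 12.8 and 12.2 FPKM in the controls, against 11.8, 12.3 and 11.8 FPKM in the knockouts. Knockout 2 lay within the control range and the other 2 knockouts below it. The log2 difference was -0.09 ± 0.07, with a 95% interval of -0.26 to 0.07 (limma, adjusted p = 0.384). This was the lowest value among the members, and 18.4% of tested genes lay lower still. After median-ratio scaling it was -0.24 (adjusted p = 0.0593).

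Nrf1 was the member of lowest level. It read 1.07, 0.952 and 0.972 FPKM in the controls, against 1.40, 1.22 and 1.23 FPKM in the knockouts. All knockouts were above all controls, and the means of 0.998 ± 0.0638 and 1.29 ± 0.103 FPKM (SD, n = 3) gave a ratio of 1.29. On the scale of FPKM + 1, which understates the change of a gene at this level, the difference was 0.19 ± 0.09 with a 95% interval of -0.03 to 0.42 (limma, adjusted p = 0.193). With a pseudocount of 0.1 it was 0.33 (adjusted p = 0.208), and with limma's voom on fragments recovered from the FPKM it was 0.37 (adjusted p = 0.0771). Nrf1 rested on an estimated 155 to 226 fragments per mouse, for which counting alone gives an error of 6.65% to 8.03%.

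Polg, the catalytic subunit of the mtDNA polymerase, read 4.83, 4.35 and 3.77 FPKM in the controls, against 5.07, 4.68 and 4.18 FPKM in the knockouts. The groups overlapped, and the difference was 0.09 ± 0.10 with a 95% interval of -0.16 to 0.34 (limma, adjusted p = 0.588). Its accessory subunit Polg2 read 1.59, 1.305 and 1.46 FPKM in the controls, against 1.52, 1.58 and 1.38 FPKM in the knockouts. All knockouts lay within the control range, and the difference was 0.02 ± 0.09 with a 95% interval of -0.20 to 0.25 (limma, adjusted p = 0.883). Polg2 had the fewest fragments of the 10 genes, an estimated 90 to 112 per mouse, with a counting error of 9.45% to 10.5%. In GRCm38 Tfam lies on the minus strand of chromosome 10 at 71225464 to 71238280, and Nrf1 spans 30047988 to 30153458 of chromosome 6 on the plus strand. Polg lies on the minus strand of chromosome 7 at 79446231 to 79466362, and Polg2 on the minus strand of chromosome 11 at 106768253 to 106779537. Polg shares 921 exonic bases with Fanci on the other strand, which had a mean of 0.0145 FPKM, and Polg2 shares 132 with Milr1 at a mean of 0.538 FPKM. The sources used here do not state whether the counting used strand.

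**Figure D2:**
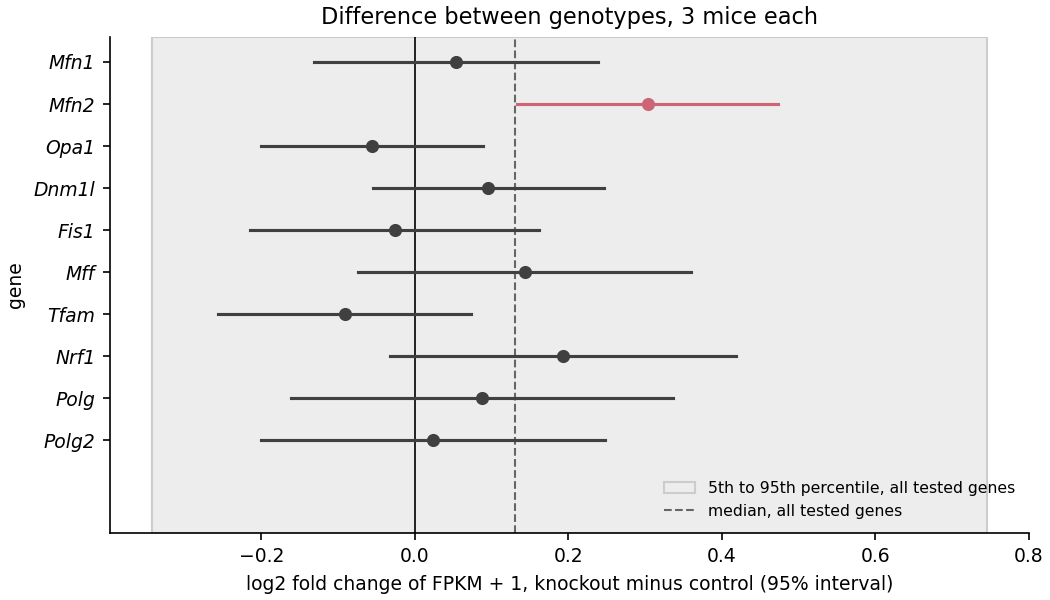
Log2 difference of FPKM + 1 between 3 knockout and 3 control mice for each member (point) with its 95% interval (line), beside the 5th to 95th percentile of all 10996 tested genes (grey band) and their median of 0.13 (dashed line). The interval of Mfn2 lies above 0, and the intervals of the other 9 members include 0.

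Levels within the set spanned from 31.1 FPKM for Mfn2 to 0.998 FPKM for Nrf1 in controls. In falling order of control mean the genes were Mfn2, Fis1, Opa1, Tfam, Mfn1, Dnm1l, Polg, Mff, Polg2 and Nrf1. Of neighbours in this order, Tfam and Mfn1 overlapped between control mice, and the other neighbours did not. In the knockouts the order was the same except that Mfn1 and Tfam, which overlapped again, changed places. There Polg2 and Nrf1 overlapped too. The values are per length of all annotated exons together, which is 1714 bases for Fis1 and 10742 bases for Polg, so a gene with many alternative exons reads lower than a gene of few.

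Ratios between members within a mouse do not depend on a scaling by 1 factor per library, though quantile normalization changes them. The ratio of Mfn2 to Mfn1 was 2.86, 2.87 and 2.37 in controls 1, 2 and 3 and 3.32, 2.95 and 3.37 in knockouts 1, 2 and 3. It was higher in each knockout than in any control, with means of 2.70 ± 0.285 and 3.21 ± 0.232 (SD, n = 3). The ratio of Fis1 to Mff was lower in each knockout, at 6.60 ± 0.318 against 7.64 ± 0.274 (SD, n = 3). The ratio of Polg to Polg2 overlapped between the groups, at 2.99 ± 0.379 in controls and 3.12 ± 0.199 in knockouts (SD, n = 3).

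A further pair of ratios was chosen after the values were seen. Opa1 to Dnm1l, an inner membrane fusion gene against the fission GTPase, was 1.71, 1.76 and 1.75 in controls 1, 2 and 3 and 1.56, 1.54 and 1.56 in knockouts 1, 2 and 3. Mfn2 to Opa1, 2 fusion genes, was 1.82, 1.73 and 1.61 in controls 1, 2 and 3 and 2.22, 2.15 and 2.30 in knockouts 1, 2 and 3. Neither overlapped between the groups. This was fixed once these pairs were picked, since every knockout was below the controls in Opa1 and above them in Dnm1l and Mfn2. The 5 ratios are given as a description, with no test. A ratio shows that its genes differed unequally, not which of them changed.

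**Figure D3:**
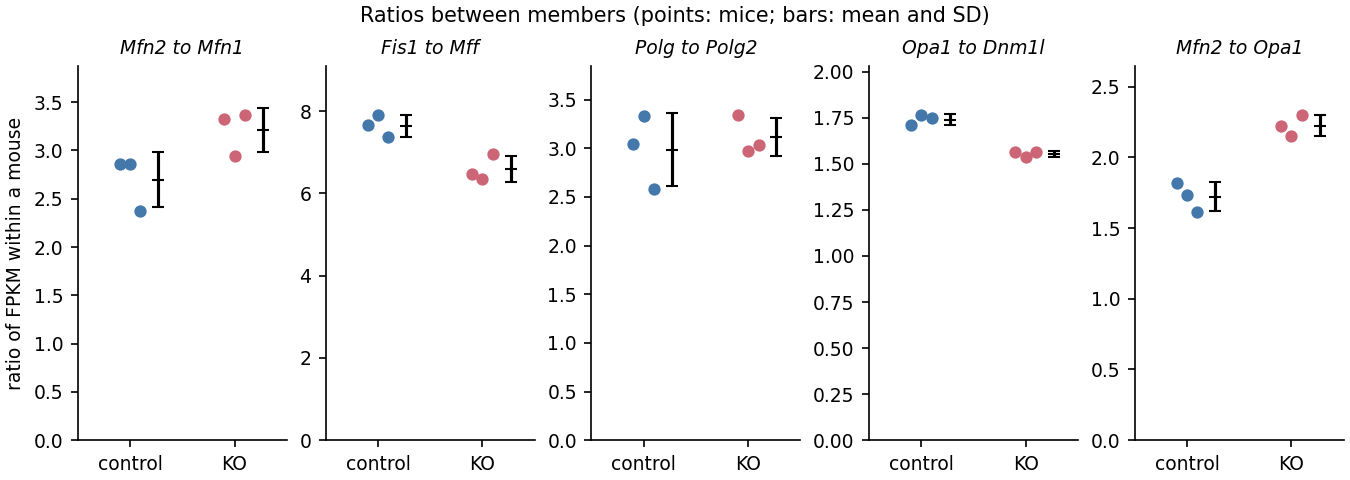
Ratio of the FPKM of 2 members within each mouse, for 5 pairs, with points for mice, bars for mean and SD, controls in blue and knockouts (KO) in red. The groups are separate for every pair but Polg to Polg2, and Opa1 to Dnm1l lies at 1.71 to 1.76 in controls and 1.54 to 1.56 in knockouts. For Opa1 to Dnm1l and Mfn2 to Opa1, the separation follows from that of the single genes.

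The sign of the small differences depended on how the libraries were put on a common scale. As deposited, 7 members had a positive and 3 a negative difference. After median-ratio scaling, which brought the median of tested genes close to 0, 3 were positive and 7 negative. After quantile normalization 1 was positive and 9 negative, and with a common sum of FPKM 9 were positive and 1 negative. Mfn2 was positive and Tfam negative under these 4 scalings, and the other 8 members changed sign under at least 1 of them. Relative to the median of all tested genes, 3 members lay above it (Mfn2, Nrf1 and Mff) and 7 below.

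**Figure D4:**
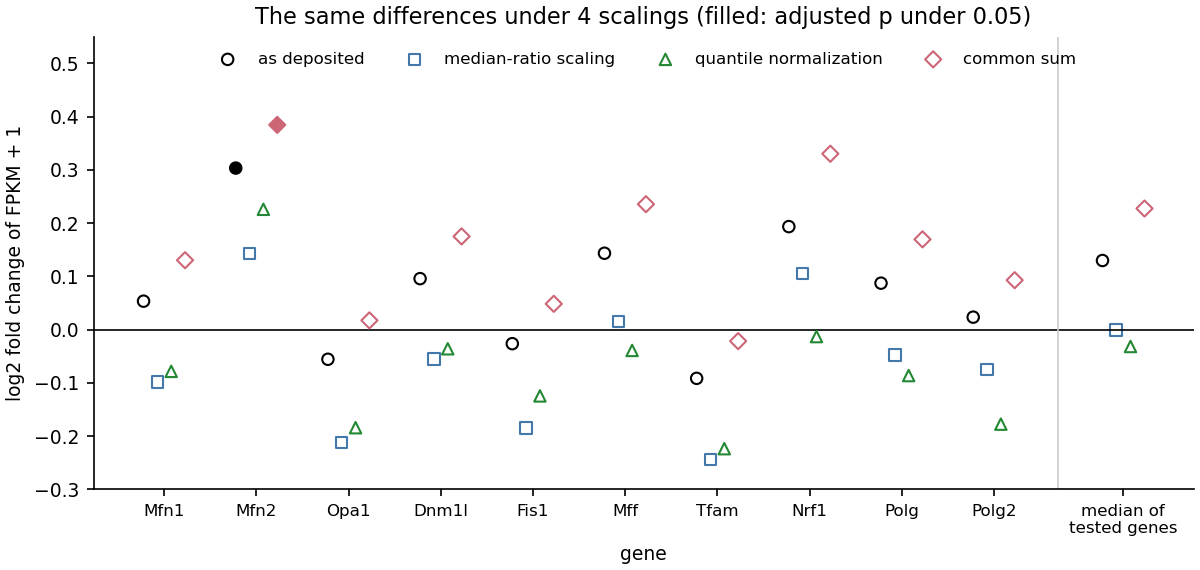
Log2 difference of FPKM + 1 for each member under 4 ways of scaling the 6 libraries, with the median of the tested genes at the right, filled where limma's adjusted p was under 0.05. Mfn2 lies above 0 and Tfam below 0 under all 4, and the 8 other members have points on either side of 0.

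Other genes of these processes were read from 10 lists, which hold 128 tested genes besides the members. Of these, 12 were higher and 9 lower, or 16.4% called, beside 16.5% of all tested genes. Their median difference was 0.04.

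Around fusion, 1 of 13 tested genes rose and 1 fell. Spg7, which encodes paraplegin, a subunit of the m-AAA protease of the inner membrane, rose (0.38 ± 0.09, limma adjusted p = 0.033), and Miga2, an outer membrane protein that promotes fusion, fell (-0.42 ± 0.09, limma adjusted p = 0.0282). The proteases that cut the Opa1 protein, Oma1 and Yme1l1, are not among the named genes of smallest p and were at 0.17 ± 0.08 (limma adjusted p = 0.183) and 0.05 ± 0.09 (limma adjusted p = 0.694). They are given after their values were seen, because of their role.

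Around fission, 2 of 13 tested genes rose and 1 fell. Senp5, a SUMO protease that acts on the Dnm1l protein, went from 3.68 ± 0.211 to 6.12 ± 0.342 FPKM (SD, n = 3), a log2 difference of 0.60 ± 0.08 (limma adjusted p = 0.00985). Fundc1, an outer membrane receptor of mitophagy, rose by 0.35 ± 0.07 (limma adjusted p = 0.0269). Mtfp1, an inner membrane protein that promotes fission, fell from 14.0 ± 1.13 to 9.82 ± 0.0759 FPKM (SD, n = 3), a log2 difference of -0.47 ± 0.08 (limma adjusted p = 0.0164). The Dnm1l receptors Mief1 and Mief2, also chosen after their values were seen, were at 0.02 ± 0.09 and 0.09 ± 0.15 (limma adjusted p = 0.92 and 0.683).

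Of 7 tested genes of mitochondrial transport, 3 rose and 0 fell. Trak2, an adaptor between mitochondria and motor proteins, read 4.29, 4.25 and 4.32 FPKM in the controls, against 7.09, 7.03 and 6.81 FPKM in the knockouts. The groups were far apart relative to their spread, with a log2 difference of 0.59 ± 0.06 (limma adjusted p = 0.00638). The kinesin heavy chain Kif5b (0.46 ± 0.08, limma adjusted p = 0.0193) and the outer membrane protein Armcx3 (0.43 ± 0.09, limma adjusted p = 0.0271) rose as well. Of 11 tested genes of cristae and contact sites, 1 rose and 1 fell. These were the subunits Apool (0.35 ± 0.09, limma adjusted p = 0.0456) and 2410015M20Rik, also known as Micos13 (-0.45 ± 0.09, limma adjusted p = 0.0227).

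In mtDNA replication and repair limma called 0 of 12 tested genes, and 3 had an unadjusted p under 0.05. With limma's voom on recovered fragments, an alternative added after the data were seen, Lig3 passed (adjusted p = 0.0397). The smallest p were those of the exonuclease Mgme1 (0.32 ± 0.09, limma adjusted p = 0.0519) and the ligase Lig3 (0.29 ± 0.08, limma adjusted p = 0.0584). The helicase Twnk was at 8.44 ± 0.604 FPKM in controls and 8.39 ± 0.653 FPKM in knockouts (SD, n = 3, limma adjusted p = 0.964), a gene given after its values were seen. In mtDNA transcription and nucleoids limma called 0 of 14 tested genes, and 3 had an unadjusted p under 0.05. Those of smallest p were the matrix unfoldase subunit Clpx (0.57 ± 0.21, limma adjusted p = 0.102), at 0.33 without knockout 1, and the matrix protease Lonp1 (0.26 ± 0.10, limma adjusted p = 0.108).

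Of 14 tested genes of mitochondrial nucleotide supply, 1 rose and 2 fell. The adenine nucleotide carrier Slc25a4 rose (0.68 ± 0.16, limma adjusted p = 0.0332), and the adenylate kinase Ak4 fell (-0.71 ± 0.16, limma adjusted p = 0.0315). Of 19 tested regulators of mitochondrial biogenesis, 3 rose and 1 fell. Myc went from 1.73 ± 0.0905 to 5.21 ± 0.605 FPKM (SD, n = 3), a log2 difference of 1.18 ± 0.10 (limma adjusted p = 0.00423). The oxidative stress factor Nfe2l2 (0.74 ± 0.14, limma adjusted p = 0.0213) and the coactivator Pprc1 (0.44 ± 0.12, limma adjusted p = 0.0459) rose. The nuclear receptor Esrra, a regulator of genes of oxidative metabolism, fell from 17.7 ± 1.43 to 11.9 ± 1.10 FPKM (SD, n = 3), a log2 difference of -0.54 ± 0.09 (limma adjusted p = 0.0194).

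In mitophagy 2 of 14 tested genes rose and 0 fell. They were Fundc1, given above, and the autophagy receptor Sqstm1 (0.90 ± 0.17, limma adjusted p = 0.0213). Of the 13 protein genes of mtDNA itself 0 rose and 3 fell, mt-Nd1 (-0.62 ± 0.11), mt-Nd2 (-0.44 ± 0.11) and mt-Nd3 (-0.54 ± 0.13), with limma adjusted p of 0.02, 0.0402 and 0.038, while the median of the 13 was -0.03. The mt-Nd2 call was lost under each of the other 3 scalings, at -0.60 (limma adjusted p = 0.0501) with median-ratio scaling, -0.0376 (limma adjusted p = 0.824) with quantile normalization and -0.36 (limma adjusted p = 0.0688) with a common sum. These values come from a poly(A)-selected library and are a level of RNA, not of mtDNA.

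**Figure D5:**
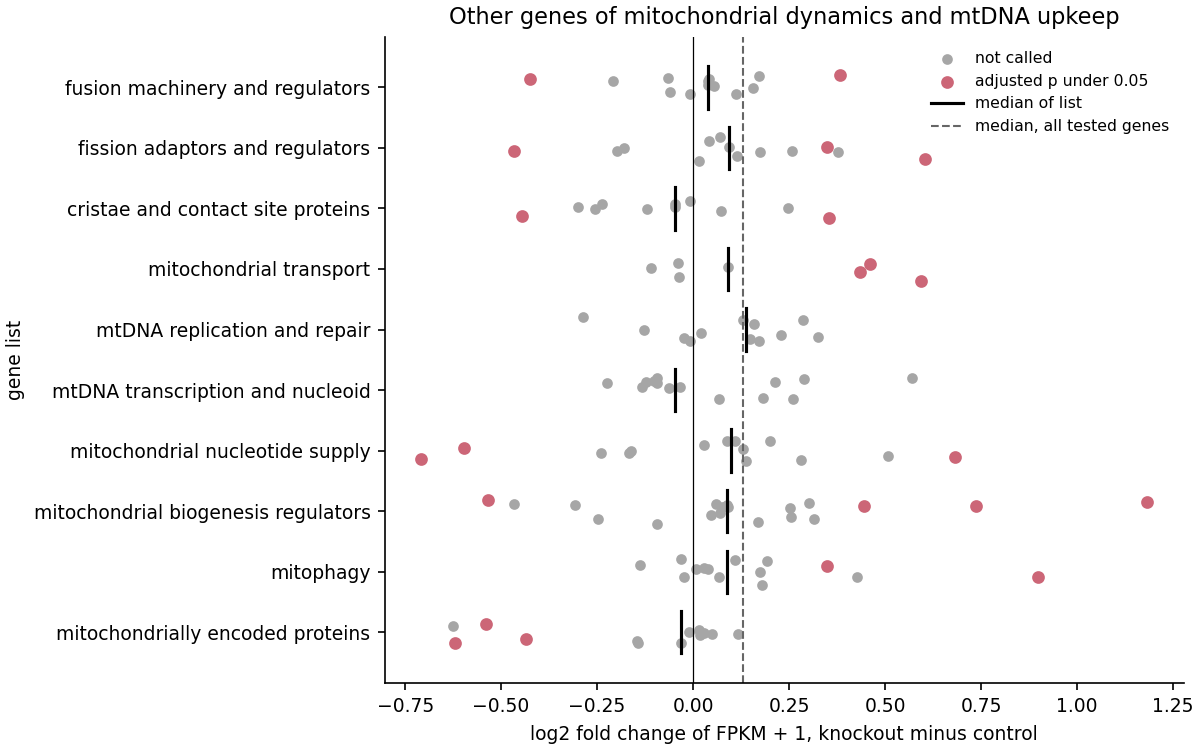
Log2 difference of FPKM + 1 for each tested gene (point) of 10 lists around the members, red where limma's adjusted p was under 0.05, with the median of each list (bar) and of all tested genes (dashed line at 0.13). Called genes lie on both sides of 0 in the lists of fusion, fission, cristae, nucleotide supply and biogenesis, and the lists of mtDNA replication and transcription hold 0 called genes.

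Of the 21 called genes of these lists, Trak2, Senp5 and Myc passed in each of the 6 fits that left out 1 mouse. The other 18 lost their call in at least 1 of them: 13 were lost without control 1, 17 without control 2, 17 without control 3, 15 without knockout 1, 17 without knockout 2 and 2 without knockout 3. With no filter on low genes 13 of the 21 lost their call. Under median-ratio scaling 7 lost it, Spg7, Fundc1, Apool, Kif5b, Armcx3, Pprc1 and mt-Nd2, and under quantile normalization these and Slc25a4 did, 8 in all. None of the 21 changed sign in the alternatives in which it was tested.

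By Pearson correlation of log2(FPKM + 1) over the 6 mice, the tested genes most like Mfn2 were Bet1 (r = 0.998), Cs (r = 0.997) and Nme1 (r = 0.997). Cs, which encodes citrate synthase of the mitochondrial matrix, was at 13.0 to 15.96 FPKM in controls and 22.6 to 23.9 FPKM in knockouts, a log2 difference of 0.62 ± 0.09 (limma adjusted p = 0.0124). Those most like Tfam, the member of smallest p among the lower ones, were Gpatch11 (r = 0.984), Spout1 (r = 0.981) and Mrps33 (r = 0.979). These values describe linear agreement over 6 livers that share 2 genotypes, and were picked as the highest among 10996 genes. A difference between the genotypes enters them.

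Some markers of other liver cells moved with genotype, and their part in the values of the members was not tested. The counts below stand beside 13.9% of all tested genes called higher and 2.61% called lower. Of stellate and fibroblast markers 8 of 10 tested rose, with summed levels of 43.1 to 51.95 FPKM in controls and 97.1 to 136 FPKM in knockouts. Of macrophage markers 5 of 10 tested rose (258 to 385 against 420 to 797 FPKM), and of endothelial markers 3 of 10 (79.6 to 91.2 against 103 to 131 FPKM). Knockout 3 stood apart from the other knockouts: it was at 14.7 FPKM of the macrophage marker Cd68 against 31.2 and 31.5 FPKM, and at 10.1 on the first principal component against 24.6 and 27.7. Without it 1987 genes were higher, against 1532 with all mice. Of leukocyte markers 3 of 3 tested rose, Ptprc, Coro1a and Laptm5 (list sum 9.58 to 10.4 against 16.4 to 32.9 FPKM). The lymphocyte markers of that list, Cd3e, Cd3g, Cd8a, Cd79a, Cd79b, Ms4a1 and Nkg7, were under the filter and not tested. Of 7 biliary markers the 1 tested, Spp1, rose (12.5 to 14.8 against 32.1 to 64.0 FPKM). Spp1 makes up most of the summed biliary level, and the defining Krt19 overlapped between the groups at 0.132 to 0.549 and 0.282 to 0.450 FPKM, with Krt7 and Cftr under 0.1 FPKM. Sox9, under the filter, was higher in each knockout, at 0.178 to 0.321 FPKM in controls and 0.987 to 1.32 FPKM in knockouts. Cftr was also higher in each knockout, while Krt7, Epcam and Cldn7 overlapped. Of adipocyte markers 2 of 2 tested rose (1.61 to 1.89 against 6.81 to 14.1 FPKM), while the defining Adipoq, Plin1, Lep and Retn were under 0.1 FPKM. Among the markers that rose, Cfd, Col1a1, Col1a2 and Ptprc passed the filter only through the knockouts. Their control values were 0 to 0.274, 0.223 to 0.558, 0.684 to 1.05 and 0.834 to 1.05 FPKM. The counts of adipocyte, stellate and leukocyte markers that rose are in part set by this selection. Erythroid markers summed to 255 to 371 and 333 to 534 FPKM, with 1 of 5 tested higher, and skeletal muscle markers to at most 0.0406 FPKM. Of 9 hepatocyte markers 1 rose, Hnf4a, and 2 fell, Alb and Ttr, and the rest were not called. Their sum was 44828 to 53119 FPKM in controls and 34358 to 37582 FPKM in knockouts. Alb made up most of it, at 30151 to 37369 FPKM in controls and 21103 to 24029 FPKM in knockouts. In whole liver, fewer cells of a type and less RNA per cell cannot be told apart.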

How the data were processed

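The authors deposited 1 table of FPKM for 28450 genes with identifiers, symbols and positions. The submitters' processing notes list StringTie 1.3.0, HISAT2 2.0.4, Bowtie2 2.2.6 and the build GRCm38, with no role for any. Columns were matched to mice by title. Of the identifiers, 28374 were in GENCODE M21 (GRCm38), 27170 at the same position, and its merged exon lengths were used for estimated fragments. Of low values (under 20 estimated fragments), 98.0% to 98.2% came out within 0.1 of a whole fragment. These totals are estimates, and errors from them cover counting only.

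Genes whose mean reached 1 FPKM were tested on log2(FPKM + 1) with limma 3.58.1 in R 4.3.3 (lmFit, eBayes with a trend). The p-values measure the spread between 3 mice per group. The members and lists were chosen with earlier results of these data known. Named genes were the members, Acsm3 and, from each list, up to 3 called genes of smallest p in each direction, or the 2 of smallest p where none was called; genes named outside this rule are marked. Gdap1, Tf and Ckm, though listed, are not used here, and 1 called gene that the rule names is not reported here. Alternatives were pseudocounts of 0.1 and 5, no filter, a filter at 5 FPKM, 3 scalings, eBayes without trend or robust, the replicate number as a block and leaving out each mouse; voom on recovered fragments was added after the data were seen. On simulated data for this comparison, 200 of 10996 genes were changed in each of 5 sets. There limma recovered 52.8% of genes changed 1.5-fold, 79.4% of those changed 2-fold and 96.4% of those changed 4-fold. Of its calls 4.4% were unchanged genes. The simulated folds were of FPKM + 1, in random directions, with genes drawn independently. Far fewer genes were changed than were called in the data, so these rates need not hold for the calls given here. Python 3.11.15 with pandas 2.3.3 and matplotlib 3.10.9 made the summaries and figures. The labels give no sequencing batch or date.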

Additional observations from a re-analysis of the deposited data

How the results depend on the processing

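The count of members called, 1, became 0 with no filter, median-ratio scaling, quantile normalization and the replicate block, and 0 to 0 without any 1 mouse; it was 1 under the other alternatives, voom included. Fits without 1 mouse have fewer samples. Over all genes, the 1532 higher became 544 with no filter, 848 with a filter at 5 FPKM, 830 with median-ratio scaling, 752 with quantile normalization and 2582 with a common sum, and 223 to 1987 without 1 mouse. The 287 lower became 106 with no filter, 735 with median-ratio scaling and 603 with quantile normalization, and 55 to 284 without 1 mouse. The number of genes tested changed too, from 10996 to 26129 with no filter, 5571 with the filter at 5 FPKM, 10966 with median-ratio scaling and 13660 with a common sum. Beyond the numbers of genes and mice, the cause was not tested.

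Differences that changed sign, none of them called, were as follows. With median-ratio scaling, Mfn1 was at -0.10, Dnm1l at -0.0549, Polg at -0.0472 and Polg2 at -0.0745. With quantile normalization, Mfn1 was at -0.0783, Dnm1l at -0.0359, Mff at -0.039, Nrf1 at -0.013, Polg at -0.0862 and Polg2 at -0.18. With a common sum, Opa1 was at 0.0174 and Fis1 at 0.0485. Without 1 mouse, Fis1 ranged from -0.0732 to 0.0242 and Polg2 from -0.0201 to 0.0633, and the ratio of Polg to Polg2, knockout over control, from 0.977 to 1.11. In mtDNA replication, Mgme1 passed under 3 alternatives and Lig3 under 2.

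The replicate numbers were not treated as pairs: same-numbered mice correlated at 0.111, 0.092 and 0.187 in their deviations from group means, and each mouse correlated best with its own number. With the replicate block 1672 genes were higher and 346 lower, and Mfn2 (adjusted p = 0.0529), mt-Nd2 (0.0641) and mt-Nd3 (0.0522) lost their calls (limma). Depth limits Polg2 and Nrf1 most.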
